A study of Capra hircus with 6 samples.

Results

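The genes described here are 36 genes that mark T cells, B and plasma cells, and cytotoxic lymphocytes, read from whole-ovary RNA of goats (Capra hircus). They were chosen by gene symbol as a list of lineage genes, and 32 of the 36 were found among the 17504 genes of the deposited tables. ZAP70, IL2RB, PAX5 and GZMB matched no gene there and were not analysed here. The list holds 24 T cell genes, 6 B and plasma cell genes and 6 cytotoxic genes, and several of the T cell genes are also used by natural killer (NK) cells.

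The samples were ovaries of 3 Jintang black goats, which the labels call prolific, and of 3 Tibetan goats, which they call non-prolific, all sampled in the follicular phase with no treatment named. The study set out to compare the ovarian transcriptomes of the breeds. The labels name no age, parity, day of the cycle or region of the ovary. Values are FPKM (fragments counted per kilobase of a gene's transcript and scaled to the size of the library), so levels of different genes can be set side by side per length. Each library is 1 goat (Jintang 1 to 3 and Tibetan 1 to 3), and the numbers do not pair goats across breeds.

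T cells recognise antigen through a receptor whose signal is passed on by the CD3 chains and CD247, the kinases LCK and ZAP70, and the adaptor LAT. B cells signal through CD79A and CD79B beside the surface immunoglobulin, and plasma cells secrete immunoglobulin that the joining chain JCHAIN links into polymers. Cytotoxic T cells and NK cells kill with perforin and granzymes. In the ovary such cells lie in the stroma, around degenerating follicles and in the regressing corpus luteum, where macrophages are the more numerous leukocytes.

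Ovarian genes were expressed in every library: the inhibin subunit INHA ran from 9.56 to 144 FPKM in Jintang and from 51.4 to 1194 FPKM in Tibetan ovaries, and the steroid transporter STAR from 30.8 to 3130.35 FPKM in Jintang and from 8.91 to 139 FPKM in Tibetan ovaries. The FPKM of a library summed to between 602255 and 682801, and low values were spaced as in libraries of 0.926 to 1.029 times the depth of Tibetan 1. The number of fragments behind a value is unknown. Breeds were compared with limma on log2(FPKM + 1). Each fold change is the Jintang mean minus the Tibetan mean on that scale, where differences of low genes come out too small. A gene was tested if 3 or more libraries reached 1 FPKM, which kept 13067 genes and 22 of the 32 lymphocyte genes. The other 10 were too low for the test and are given by their values.

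No lymphocyte gene passed the breed comparison. At a limma adjusted p under 0.05, Jintang ovaries had 0 of the 22 higher and 0 lower, against 0.0% of all 13067 genes in each direction. At an unadjusted p under 0.05 there was 1 gene of 22, CD8A, which was higher in Jintang ovaries. Of all genes 6.17% reached that level, 2.82% (368 genes) higher and 3.35% (438 genes) lower in Jintang ovaries, or 456 and 308 genes with median-ratio scaling. The median log2 fold change of the 22 was 0.12, with 14 positive and 8 negative, and the median over all genes tested was -0.10. By class the median was 0.16 for 18 T cell genes (12 positive, 6 negative), -0.10 for 2 B and plasma cell genes and 0.28 for 2 cytotoxic genes. Without Jintang 3 the median of the 22 was -0.28, and without Tibetan 2 it was 0.54. In no tested gene were the 3 Jintang ovaries all above or all below the 3 Tibetan ovaries, where 9.9% of all genes showed such a separation (3.2% with Jintang above and 6.7% with Jintang below).

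Levels differed between goats of the same breed. Over the 22 tested genes the highest ovary stood a median of 4.09 times above the lowest within Jintang ovaries (1.84 times over all genes tested) and 4.08 times within Tibetan ovaries (1.77 times over all genes tested). The values for all genes were not matched for level, and 16 of the 22 averaged under 10 FPKM in both breeds.

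The ovaries that were rich in T cell transcripts were Jintang 3 and Tibetan 2, 1 of each breed. The pair was picked after these values were seen. It held the 2 highest values in 11 of the 22 tested genes, where it was highest in 10.4% of all genes tested. With genes below the filter included, it held them in 15 of the 32 found. Jintang 3 was the highest ovary in 9 of 22, against 8.57% of all genes, and Tibetan 2 in 6 of 22, against 18.4%. The remaining tops fell to Jintang 1 (2 genes, 12.6% of all genes), Jintang 2 (1, 20.6%), Tibetan 1 (1, 21.9%) and Tibetan 3 (3, 18.0%). Jintang 2 was the lowest in 9 (25.9% of all genes) and Tibetan 1 in 10 (20.8%), while Jintang 1 was lowest in 1 (25.3%) and Tibetan 3 in 2 (9.82%). Jintang 3 (5.31%) and Tibetan 2 (12.9%) were the lowest in 0 of the 22. Tibetan 1 was also the lowest ovary in 12 of 16 myeloid, 7 of 9 theca and luteal, 6 of 10 endothelial and 5 of 11 granulosa cell markers tested. The mean log2(FPKM + 1) of the granulosa cell markers was 3.42, 3.996 and 4.37 in Jintang ovaries and 3.16, 4.49 and 3.74 in Tibetan ovaries. That mean was highest in Jintang 3 and Tibetan 2, but few single markers were. The pair held the 2 highest values in 1 of 11 granulosa cell markers, against 10 of 18 T cell genes tested. The part of these other cells in the lymphocyte values was not tested. In whole tissue, fewer lymphocytes and less RNA per lymphocyte cannot be told apart, and neither can a change in the other cells of the ovary that share the library.

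**Figure D1:**
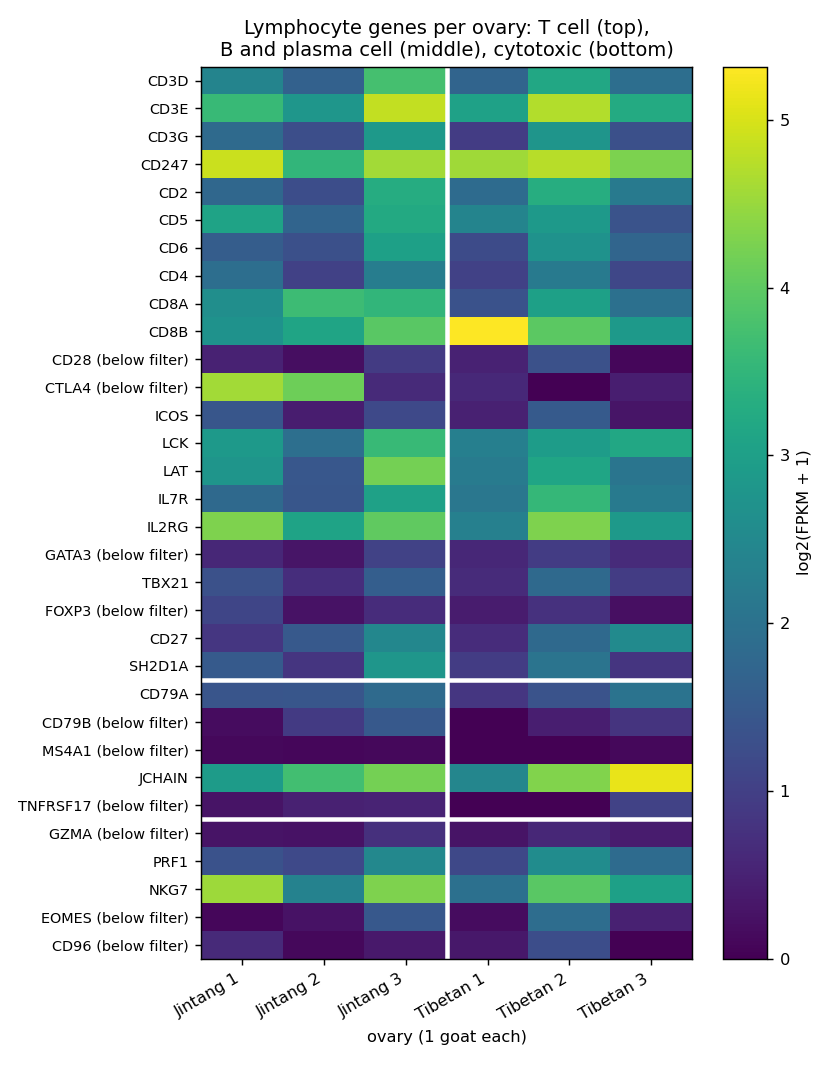
Level of the 32 lymphocyte genes found in the tables, as log2(FPKM + 1), with 1 column per ovary and Jintang left of Tibetan. The white horizontal lines part T cell, B and plasma cell, and cytotoxic genes, and "below filter" marks the 10 genes that were not tested. Most T cell rows are brightest in Jintang 3 and Tibetan 2, while CTLA4 is bright only in Jintang 1 and Jintang 2 and CD8B is brightest in Tibetan 1.

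The CD3 chains set the pattern. CD3E, the signalling chain required for every T cell receptor (GeneID 102190711), had 10.9, 5.89 and 27.5 FPKM in Jintang 1, 2 and 3, against 7.2, 24.99 and 8.46 FPKM in Tibetan 1, 2 and 3. Each breed thus had 1 high ovary and 2 low ones, and the ranges overlapped almost entirely. CD3E averaged 14.8 ± 11.3 FPKM in Jintang and 13.55 ± 9.93 FPKM in Tibetan ovaries (SD, n = 3 each; log2 fold change 0.07, SE 0.60, limma adjusted p = 0.98). Its sign turned without Jintang 3 (-0.48), without Tibetan 1 (-0.24) or without Tibetan 3 (-0.14). CD3D had 4.3, 2.13 and 12.4 FPKM in Jintang ovaries, against 2.26, 8.07 and 2.78 FPKM in Tibetan ovaries. CD3G had 2.56, 1.44 and 6.19 FPKM in Jintang ovaries, against 0.93, 5.84 and 1.47 FPKM in Tibetan ovaries. Both chains thus had the same 2 high ovaries as CD3E.

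These chains kept closer proportions to each other than their levels did. The ratio of CD3D to CD3E was 0.393, 0.362 and 0.451 in Jintang ovaries and 0.314, 0.323 and 0.329 in Tibetan ovaries, separating the breeds (exact permutation p = 0.1, adjusted p = 0.433 over 13 ratios). The ratio of CD3G to CD3E lay between 0.225 and 0.245 in Jintang ovaries and between 0.129 and 0.234 in Tibetan ovaries. CD247, the zeta chain that T cells share with NK cells, did not keep pace. It stood above the CD3 chains per length in every ovary but Jintang 3, at 28.8, 10.4 and 22.96 FPKM in Jintang ovaries, against 22.7, 25.96 and 18.2 FPKM in Tibetan ovaries. Its ratio to CD3E was 2.63, 1.76 and 0.834 in Jintang ovaries and 3.15, 1.04 and 2.15 in Tibetan ovaries, lowest in the 2 ovaries with the most CD3E.

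The surface receptors CD2, CD5 and CD6 mark mature T cells. CD2, an adhesion receptor also found on NK cells, had 2.43, 1.4 and 8.8 FPKM in Jintang ovaries, against 2.65, 8.93 and 3.54 FPKM in Tibetan ovaries. CD6 had 1.97, 1.46 and 7.13 FPKM in Jintang ovaries, against 1.31, 5.56 and 2.32 FPKM in Tibetan ovaries. Both followed CD3E. CD5, an inhibitory receptor, had 7.54, 2.28 and 8.34 FPKM in Jintang ovaries, against 4.28, 6.35 and 1.58 FPKM in Tibetan ovaries, so that Jintang 1 stood close to Jintang 3.

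The co-receptors parted from each other. CD4, which marks helper T cells and is found on macrophages in some species, followed CD3E at low level, with 2.77, 1.03 and 3.79 FPKM in Jintang ovaries, against 1.05, 3.48 and 1.18 FPKM in Tibetan ovaries. It averaged 2.53 ± 1.4 FPKM in Jintang and 1.9 ± 1.37 FPKM in Tibetan ovaries (limma log2 fold change 0.29, SE 0.46, adjusted p = 0.89), and the fold change was 0.03 without Jintang 3 and 0.65 without Tibetan 2. CD8A, the alpha chain of the co-receptor of cytotoxic T cells (GeneID 102185010), had 5.2, 11.4 and 10.3 FPKM in Jintang ovaries, against 1.53, 7.08 and 2.91 FPKM in Tibetan ovaries. Tibetan 2 lay above Jintang 1, so the breeds overlapped through 1 ovary. CD8A averaged 8.97 ± 3.32 FPKM in Jintang and 3.84 ± 2.89 FPKM in Tibetan ovaries (limma log2 fold change 1.15, SE 0.48, unadjusted p = 0.0428, adjusted p = 0.743). It did not pass the test, and its fold change ran from 0.76 to 1.60 as single ovaries were left out.

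CD8B, the beta chain that pairs with CD8A on most cytotoxic T cells (GeneID 102184733), went its own way. It had 5.59, 7.64 and 14.6 FPKM in Jintang ovaries, against 38.9, 14.7 and 6.19 FPKM in Tibetan ovaries. The highest value was in Tibetan 1, the ovary with the lowest CD8A and the second lowest CD3E. CD8B averaged 9.27 ± 4.71 FPKM in Jintang and 19.9 ± 16.96 FPKM in Tibetan ovaries (limma log2 fold change -0.78, SE 0.61, adjusted p = 0.778), and without Tibetan 1 the fold change was -0.15. The ratio of CD8A to CD8B was 0.93, 1.5 and 0.706 in Jintang ovaries and 0.0394, 0.482 and 0.47 in Tibetan ovaries. All 3 Jintang ratios lay above all 3 Tibetan ratios, which gives an exact permutation p of 0.1, the smallest that 3 ovaries against 3 allow, and an adjusted p of 0.433 over 13 ratios tested, a family formed after the values were seen. In the RefSeq map the CD8 genes lie next to each other, between KRCC1 and RMND5A. KRCC1 had 27.2, 23.8 and 27.1 FPKM in Jintang ovaries, against 16.1, 25.3 and 19.3 FPKM in Tibetan ovaries, and RMND5A lay between 21.98 and 36.02 FPKM in all 6. No source used here says if the counting was strand-specific, and transcripts that overlap CD8B on the other strand cannot be told apart from it.

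The co-stimulatory receptors CD28, ICOS and CTLA4 lie side by side in the RefSeq map, with CTLA4 between the other two. CD28, the main activating co-receptor of T cells, was low at 0.43, 0.14 and 0.91 FPKM in Jintang ovaries, against 0.42, 1.5 and 0.07 FPKM in Tibetan ovaries. ICOS, which appears on activated T cells, had 1.67, 0.34 and 1.24 FPKM in Jintang ovaries, against 0.4, 1.85 and 0.24 FPKM in Tibetan ovaries. Tibetan 2 was the highest ovary for both, and CD28 gave no separation of the breeds (exact permutation p = 1.0, 2-sided).

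CTLA4, the inhibitory receptor that competes with CD28 for its ligands (GeneID 102179425), had 22.8, 16.7 and 0.56 FPKM in Jintang ovaries, against 0.52, 0 and 0.36 FPKM in Tibetan ovaries. Of the 32 genes it alone separated the breeds, where 9.9% of all genes tested did so, a set that leaves CTLA4 out. Every Jintang value was the higher, but Jintang 3 stood just above Tibetan 1. The high values sat in Jintang 1 and Jintang 2, so the gene reached 1 FPKM in too few libraries to be tested with limma. An exact permutation test gave p = 0.1 (2-sided), the smallest that 3 against 3 allow. In Jintang 1 and Jintang 2 CTLA4 stood 53 and 118.9 times above CD28, while in Jintang 3 it stood at 0.615 times CD28. FOXP3, the master factor of the regulatory T cells that carry much CTLA4, had 1.15, 0.2 and 0.6 FPKM in Jintang ovaries, against 0.33, 0.7 and 0.16 FPKM in Tibetan ovaries (exact permutation p = 0.6). CTLA4 therefore ranked the ovaries unlike CD3E, CD28, ICOS and FOXP3, although FOXP3 was also highest in Jintang 1. Of 9 theca and luteal markers tested, PTGFR, a prostaglandin receptor of luteal cells, and TIMP1 had the same 2 highest ovaries as CTLA4. PTGFR had 274, 259 and 19.4 FPKM in Jintang ovaries, against 21.8, 32.3 and 9.23 FPKM in Tibetan ovaries. The other 7 had other pairs at the top: CYP11A1, the first enzyme of steroid synthesis, had 515, 5995 and 99.5 FPKM in Jintang ovaries, against 52.8, 77 and 912 FPKM in Tibetan ovaries, and CYP17A1, an enzyme of androgen synthesis, was lowest in Jintang 1 and Jintang 2 (1.99 and 4.24 FPKM). The 9 markers summed to 6457, 20150 and 638.2 FPKM in Jintang ovaries, against 393.1, 743.1 and 3457 FPKM in Tibetan ovaries. Luteal markers were not alone in this. The endothelial markers PECAM1, CDH5, PLVAP, FLT4 and TEK also had Jintang 1 and Jintang 2 as their 2 highest ovaries. VWF, KDR, LYVE1, PROX1 and EMCN did not. PECAM1 had 82, 93.7 and 24.4 FPKM in Jintang ovaries, against 12.65, 40.3 and 18.8 FPKM in Tibetan ovaries. Genes of other lists, among them KIT, MRC1 and CD40, shared these 2 ovaries too. The part of luteal, endothelial or other cells in the CTLA4 values was not tested.

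**Figure D2:**
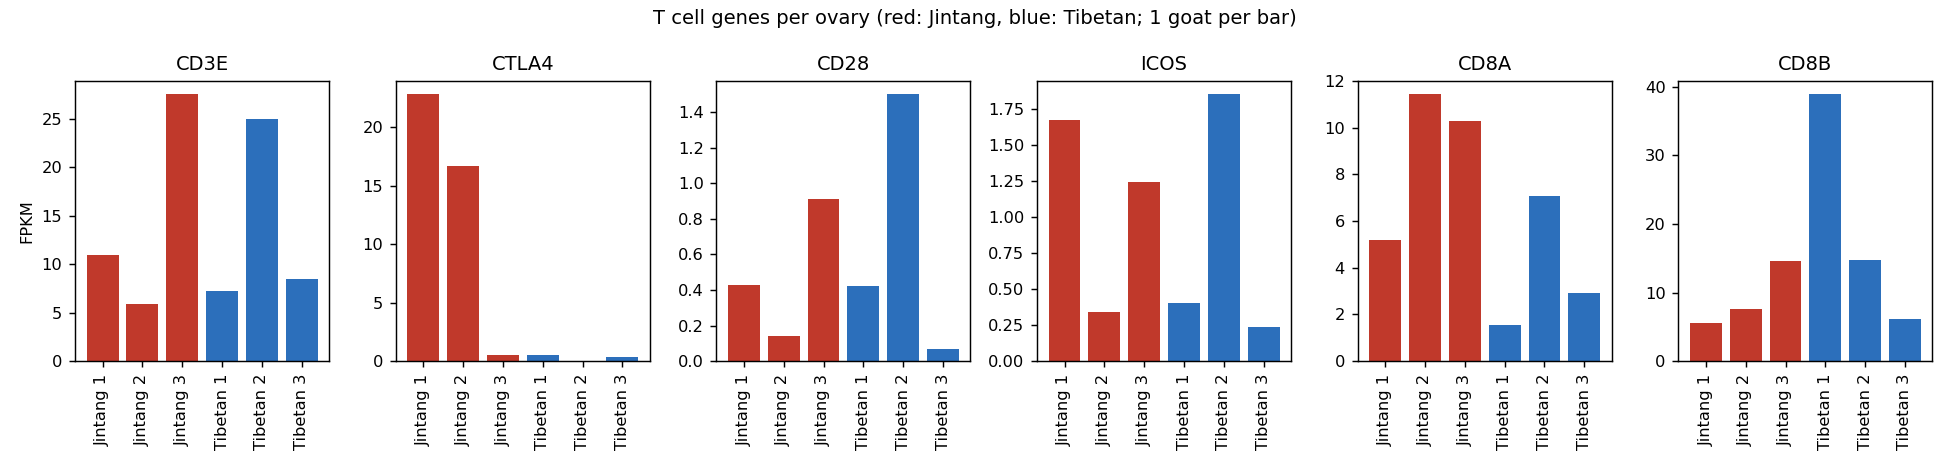
FPKM of 6 T cell genes in each ovary, with Jintang (red) left of Tibetan (blue), 1 goat per bar and a separate linear axis from 0 for each gene. CD3E is highest in Jintang 3 and Tibetan 2 (27.5 and 24.99 FPKM), CTLA4 in Jintang 1 and Jintang 2 (22.8 and 16.7 FPKM), and CD8B in Tibetan 1 (38.9 FPKM).

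Of the signalling proteins, LAT, the adaptor that assembles the receptor's signalling complex, had 5.86, 1.72 and 17.5 FPKM in Jintang ovaries, against 3.62, 7.7 and 3.2 FPKM in Tibetan ovaries, in the order of CD3E among Jintang ovaries. LCK, the kinase that starts the receptor signal, had 6.34, 2.82 and 11 FPKM in Jintang ovaries, against 3.89, 6.69 and 8.12 FPKM in Tibetan ovaries, with Tibetan 3 above Tibetan 2. SH2D1A, an adaptor of the SLAM receptors in T and NK cells, had 1.82, 0.76 and 5.98 FPKM in Jintang ovaries, against 0.92, 3.13 and 0.77 FPKM in Tibetan ovaries. All of these overlapped between the breeds.

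Among the cytokine receptors, IL7R, which keeps resting T cells alive, had 2.51, 1.7 and 7.26 FPKM in Jintang ovaries, against 3.32, 10.7 and 3.49 FPKM in Tibetan ovaries. It averaged 3.82 ± 3.004 FPKM in Jintang and 5.84 ± 4.22 FPKM in Tibetan ovaries (limma log2 fold change -0.51, SE 0.54, adjusted p = 0.824), and the fold change was -0.04 without Tibetan 2 and -0.99 without Jintang 3. IL2RG, the chain shared by several interleukin receptors and found on most leukocytes, had 18.5, 7.45 and 15.3 FPKM in Jintang ovaries, against 4, 18.7 and 6.33 FPKM in Tibetan ovaries, with Jintang 1 above Jintang 3. Its log2 fold change was 0.63 (SE 0.54, limma adjusted p = 0.791), with 0.21 without Tibetan 1 and 1.2 without Tibetan 2. CD27, a co-stimulatory receptor of T cells that also marks memory B and plasma cells, had 0.78, 1.81 and 4.49 FPKM in Jintang ovaries, against 0.59, 2.52 and 4.83 FPKM in Tibetan ovaries. CD27 thus put Tibetan 3 highest.

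The lineage factors were low. TBX21, the factor of type 1 helper and cytotoxic cells, had 1.51, 0.62 and 2.03 FPKM in Jintang ovaries, against 0.57, 2.54 and 0.93 FPKM in Tibetan ovaries. GATA3, the factor of type 2 helper cells that epithelial cells use as well, ran from 0.24 to 1.07 FPKM in Jintang and from 0.5 to 0.92 FPKM in Tibetan ovaries. Jintang 3 and Tibetan 2 were the highest ovaries for both. EOMES, which guides cytotoxic T cells and NK cells, had 0.07, 0.19 and 1.74 FPKM in Jintang ovaries, against 0.13, 2.76 and 0.41 FPKM in Tibetan ovaries. The 2 ovaries rich in CD3E therefore held most of the EOMES signal.

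B cell genes were near the floor. MS4A1, the surface antigen CD20 of B cells, had 0.08, 0.07 and 0.08 FPKM in Jintang ovaries, against 0, 0 and 0.08 FPKM in Tibetan ovaries (exact permutation p = 0.4). CD79B had 0.13, 0.86 and 1.79 FPKM in Jintang ovaries, against 0, 0.37 and 0.74 FPKM in Tibetan ovaries. CD79A, whose product joins CD79B in the B cell receptor and remains in early plasma cells, had 1.66, 1.7 and 2.59 FPKM in Jintang ovaries, against 0.8, 1.56 and 3.08 FPKM in Tibetan ovaries. It averaged 1.98 ± 0.526 FPKM in Jintang and 1.81 ± 1.16 FPKM in Tibetan ovaries (limma log2 fold change 0.15, SE 0.39, adjusted p = 0.928), and its sign turned without Tibetan 1 (-0.13). The breeds overlapped in all 3 of these genes.

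Both plasma cell genes of the list were highest in Tibetan 3. JCHAIN (GeneID 102172880) had 6.51, 12.1 and 17.5 FPKM in Jintang ovaries, against 4.4, 18.7 and 34.5 FPKM in Tibetan ovaries. Tibetan ovaries held both the lowest and the highest value. JCHAIN averaged 12.03 ± 5.495 FPKM in Jintang and 19.2 ± 15.1 FPKM in Tibetan ovaries (limma log2 fold change -0.35, SE 0.66, adjusted p = 0.905), and without Tibetan 3 the fold change was 0.24. TNFRSF17, the survival receptor of plasma cells, had 0.21, 0.4 and 0.44 FPKM in Jintang ovaries, against 0, 0 and 1.07 FPKM in Tibetan ovaries.

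Plasma cell genes outside the list differed in their highest ovary. MZB1, a chaperone of immunoglobulin assembly, had 1.62, 18.4 and 12.4 FPKM in Jintang ovaries, against 2.72, 4.75 and 36.7 FPKM in Tibetan ovaries. POU2AF1, a co-activator of immunoglobulin genes, had 0.78, 2.44 and 3.03 FPKM in Jintang ovaries, against 0.65, 0.42 and 6.15 FPKM in Tibetan ovaries. DERL3, a degradation factor of secretory cells, ran from 1.3 to 2.97 FPKM in Jintang ovaries and had 0.63, 0.61 and 3.69 FPKM in Tibetan ovaries. MZB1, POU2AF1 and DERL3 were highest in Tibetan 3, an ovary with low CD3E, and were chosen after their values were seen. By contrast SDC1, a surface proteoglycan of plasma cells and epithelia, had 59.4, 20.8 and 17.3 FPKM in Jintang ovaries, against 14.2, 17.8 and 13.1 FPKM in Tibetan ovaries. The transcription factor PRDM1 (8.84 FPKM) and the surface enzyme CD38 (4.39 FPKM) were also highest in Jintang 1, and the transcription factor IRF4 (2.56 FPKM) in Jintang 2. Of the 19 tested genes of B cell receptor signalling and plasma cells outside the list, Jintang 1 was the highest ovary in 9 and Tibetan 3 in 4. The ratio of JCHAIN to CD3E was 0.595, 2.05 and 0.635 in Jintang ovaries and 0.611, 0.749 and 4.08 in Tibetan ovaries.

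**Figure D3:**
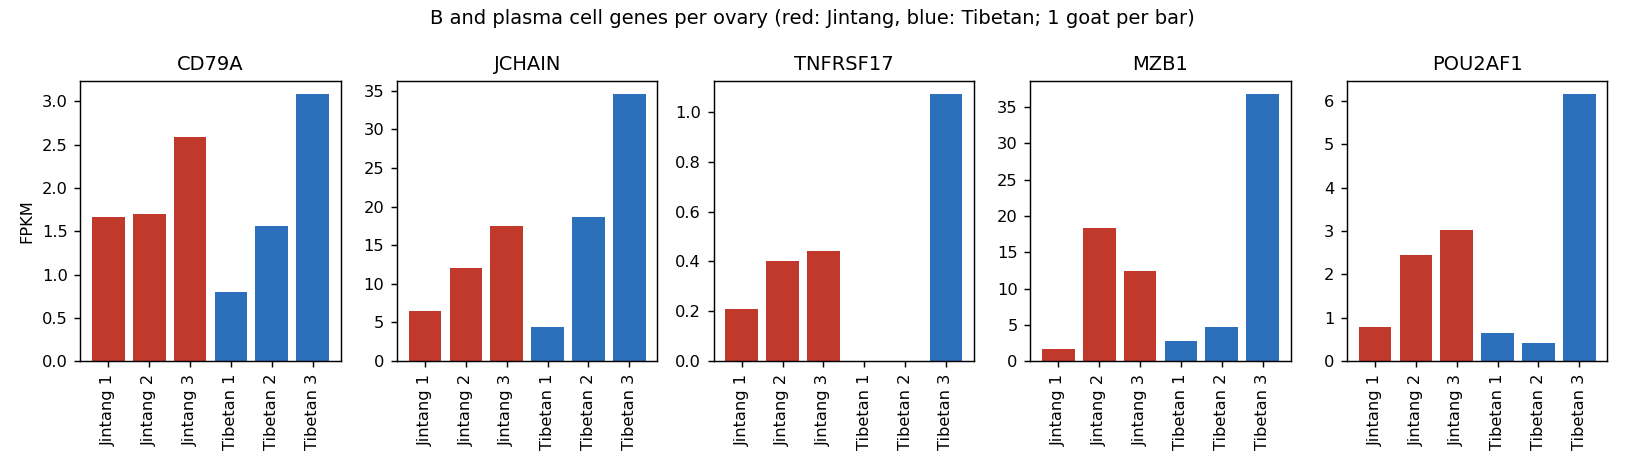
FPKM of 5 B and plasma cell genes in each ovary, with Jintang (red) left of Tibetan (blue), 1 goat per bar and a separate linear axis from 0 for each gene. All 5 genes shown are highest in Tibetan 3, and TNFRSF17 is listed at 0 in Tibetan 1 and Tibetan 2. Genes with another highest ovary are not shown, among them CD79B (Jintang 3), SDC1, PRDM1 and CD38 (Jintang 1) and IRF4 (Jintang 2).

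Among the cytotoxic genes, PRF1, the pore-forming perforin, had 1.54, 1.26 and 4.6 FPKM in Jintang ovaries, against 1.22, 5 and 2.64 FPKM in Tibetan ovaries. PRF1 followed CD3E and averaged 2.47 ± 1.85 FPKM in Jintang and 2.95 ± 1.91 FPKM in Tibetan ovaries (limma log2 fold change -0.20, SE 0.49, adjusted p = 0.928), and its sign turned without Tibetan 2 (0.16) or without Jintang 2 (0.05). NKG7, a granule membrane protein of NK and cytotoxic T cells, had 22.2, 4.1 and 18.6 FPKM in Jintang ovaries, against 2.88, 14.4 and 7.12 FPKM in Tibetan ovaries. NKG7 was highest in Jintang 1 and averaged 14.99 ± 9.6 FPKM in Jintang and 8.15 ± 5.85 FPKM in Tibetan ovaries (limma log2 fold change 0.75, SE 0.67, adjusted p = 0.798). Leaving out single ovaries gave 0.24 (without Tibetan 1) to 1.44 (without Jintang 2). GZMA, a granzyme, stayed between 0.2 and 0.67 FPKM in Jintang and between 0.21 and 0.5 FPKM in Tibetan ovaries (exact permutation p = 1.0). Granzymes form a family of similar genes, so reads may be shared between copies. CD96, an adhesion receptor of T and NK cells, had 0.55, 0.09 and 0.29 FPKM in Jintang ovaries, against 0.27, 1.39 and 0 FPKM in Tibetan ovaries.

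**Figure D4:**
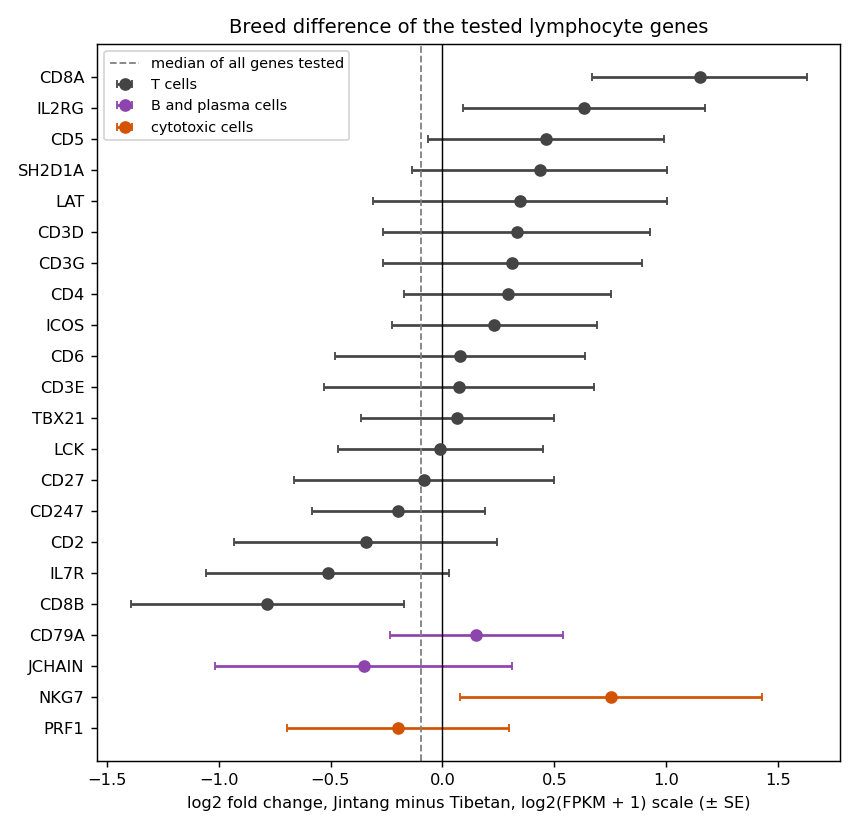
Log2 fold change (Jintang minus Tibetan, from log2(FPKM + 1) values) of the 22 tested lymphocyte genes with its standard error (n = 3 ovaries per breed). The dashed line marks the median of all genes tested (-0.10). CD8A lies farthest to the right (1.15) and CD8B farthest to the left (-0.78), and none passed the limma test.

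Further genes of the same pathways, listed by function, gave no call either. Of 16 tested genes of T cell receptor signalling, 0 passed in either direction and 11 were positive (median 0.20). RASGRP1, which couples the receptor to RAS, had 10.9, 6.49 and 2.44 FPKM in Jintang ovaries, against 0.49, 2.97 and 0.69 FPKM in Tibetan ovaries (limma log2 fold change 1.65, SE 0.55, adjusted p = 0.743). VAV1 averaged 7.74 ± 5.6 FPKM in Jintang and 2.95 ± 1.19 FPKM in Tibetan ovaries, and PRKCQ, the protein kinase C of T cells, 1.33 ± 0.252 FPKM in Jintang and 0.517 ± 0.38 FPKM in Tibetan ovaries without overlap.

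Of 19 tested genes of B cell receptor signalling and plasma cells, 0 passed and 13 were positive (median 0.35). CD40, a receptor of B cells, macrophages and endothelium, had 5.42, 5.16 and 4.32 FPKM in Jintang ovaries, against 0.75, 2.56 and 0.79 FPKM in Tibetan ovaries (limma log2 fold change 1.41, SE 0.37, unadjusted p = 0.00471, adjusted p = 0.743). In the opposite direction TNFRSF13C averaged 1.18 ± 0.847 FPKM in Jintang and 4.37 ± 1.8 FPKM in Tibetan ovaries, and CD72, an inhibitory B cell receptor, 4.38 ± 1.73 FPKM in Jintang and 11.4 ± 5.08 FPKM in Tibetan ovaries. The breeds did not overlap in these 3 genes, nor in 2 others of the 19, again against 9.9% of all genes.

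Of 10 tested NK and cytotoxic genes outside the list, 0 passed and 9 were positive (median 0.19). NCR1, an activating receptor of NK cells, averaged 1.7 ± 0.757 FPKM in Jintang and 0.617 ± 0.517 FPKM in Tibetan ovaries without overlap, and PRDM1, a factor of plasma cells and effector T cells, averaged 5.14 ± 3.2 FPKM in Jintang and 2.14 ± 0.544 FPKM in Tibetan ovaries without overlap. The granule gene GNLY had 27.1, 5.56 and 8.17 FPKM in Jintang ovaries, against 3.23, 31.1 and 3.69 FPKM in Tibetan ovaries.

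Of 15 tested homing and survival genes, 0 passed and 10 were positive (median 0.31). CCL21, the chemokine of lymphatic endothelium that draws T cells and dendritic cells carrying CCR7, had 201 to 308 FPKM in Jintang ovaries and 44.2 to 111 FPKM in Tibetan ovaries. It averaged 241 ± 58.5 FPKM in Jintang and 79.8 ± 33.65 FPKM in Tibetan ovaries without overlap (limma log2 fold change 1.65, SE 0.39, unadjusted p = 0.00273, adjusted p = 0.743). CCR7 itself had 1.81, 0.5 and 0.16 FPKM in Jintang ovaries, against 0.22, 0.78 and 0.31 FPKM in Tibetan ovaries, and ICAM1 averaged 19.9 ± 4.55 FPKM in Jintang and 28.1 ± 5.53 FPKM in Tibetan ovaries.

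Of 12 tested helper, regulatory and checkpoint genes, 0 passed and 7 were positive (median 0.31). LAG3, an inhibitory receptor, had 0.76, 0.54 and 0.69 FPKM in Jintang ovaries, against 1.55, 1.51 and 2.11 FPKM in Tibetan ovaries (limma log2 fold change -0.71, SE 0.31, adjusted p = 0.743). TNFRSF4, a co-stimulatory receptor, averaged 1.08 ± 0.409 FPKM in Jintang and 3.71 ± 2.76 FPKM in Tibetan ovaries, also without overlap. IL2RA, the high-affinity chain of the interleukin-2 receptor, had 4.65 and 4.47 FPKM in Jintang 1 and Jintang 2, 0.82 FPKM in Jintang 3 and 0.44, 1.54 and 0.4 FPKM in Tibetan ovaries, so it was highest in the same 2 ovaries as CTLA4.

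Genes shared by all leukocytes ranked the ovaries unlike the T cell genes. Of 10 tested pan-leukocyte genes 10 were positive (median 1.11, 0 passed), and Jintang 1 was the highest ovary in 7 of them and Tibetan 1 the lowest in 10. CORO1A, an actin-binding protein of leukocytes, averaged 41.9 ± 12.9 FPKM in Jintang and 15.8 ± 5.67 FPKM in Tibetan ovaries without overlap (limma log2 fold change 1.36, SE 0.37, adjusted p = 0.743). LCP1 averaged 37.8 ± 20.35 FPKM in Jintang and 13.7 ± 11.7 FPKM in Tibetan ovaries. The ratio of CD3E to PTPRC, the CD45 antigen of all leukocytes, was 0.574, 0.684 and 1.38 in Jintang ovaries and 1.6, 1.48 and 0.97 in Tibetan ovaries (exact permutation p = 0.2, adjusted p = 0.473 over the 13 ratios tested).

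Myeloid markers were higher still in the same ovary. Of 16 tested, 16 were positive (median 1.23, 0 passed), and Jintang 1 was the highest ovary in 15. At a limma unadjusted p under 0.05, 5 of the 16 were higher in Jintang ovaries, against 2.82% of all genes tested. CSF1R, the receptor that macrophages need, stood at 5.67, 2.69 and 0.595 times CD3E in Jintang ovaries and at 1.26, 0.639 and 1.07 times CD3E in Tibetan ovaries. The summed FPKM of the myeloid list ran from 243.4 to 1974 in Jintang and from 130 to 396.5 in Tibetan ovaries. CD5, IL2RG, NKG7, FOXP3 and CD247 were relatively high in Jintang 1 as well, and the part of myeloid cells in those values was not tested.

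**Figure D5:**
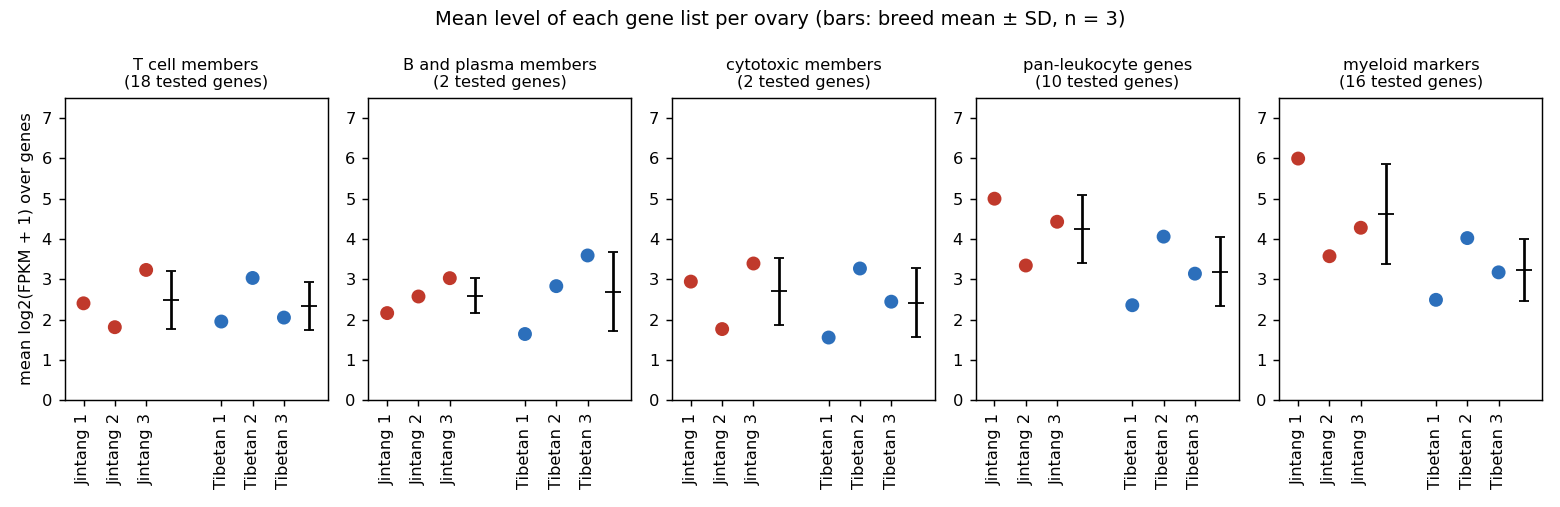
Mean log2(FPKM + 1) over the tested genes of 5 lists in each ovary, Jintang (red) left of Tibetan (blue), with the breed mean and SD (n = 3) in black beside the points. T cell genes peak in Jintang 3 (3.23) and Tibetan 2 (3.03), the 2 B and plasma cell genes in Tibetan 3 (3.59), and myeloid markers in Jintang 1 (5.995).

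Markers of other cells that could carry lymphocytes into the sample gave the following values. The erythrocyte markers found (ALAS2, SLC4A1, EPB42 and AHSP) reached at most 0.67 FPKM in any ovary. Of the lymph node markers, CR2 reached at most 1.77 FPKM and CXCL13 at most 0.7 FPKM. CCL21, given above, and CCL19 were higher in every Jintang ovary than in any Tibetan ovary, and CCL19 had 2.55, 1.18 and 0.56 FPKM in Jintang ovaries, against 0, 0.38 and 0.18 FPKM in Tibetan ovaries. LTB, a lymphotoxin made by lymphocytes, had 11.3, 3.07 and 12.4 FPKM in Jintang ovaries, against 3.29, 9.81 and 0.91 FPKM in Tibetan ovaries. The neutrophil genes S100A8 and S100A9 were highest in Tibetan 3 (23.2 and 51.6 FPKM), as JCHAIN was, and reached at most 8.38 and 5.55 FPKM elsewhere. CSF3R and CXCR2, neutrophil genes below the filter, were instead highest in Jintang 1 (1.1 and 0.53 FPKM). In Tibetan 3 they had 0.04 and 0.46 FPKM. Neutrophil and mast cell markers were positive in 2 of 3 tested and lymph node markers in 2 of 2. Endothelial markers were positive in 8 of 10 (median 0.42), granulosa cell markers in 6 of 11 (median 0.33) and theca and luteal cell markers in 8 of 9 (median 1.83), and no gene of these lists passed.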

How the data were processed

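RNA of 6 goat ovaries was extracted with TRIzol and prepared with an NEBNext Ultra kit, per the labels' protocols. The authors deposited FPKM values per gene and library, used here without rescaling. TopHat2 2.0.10, RSEM 1.2.0 and Bowtie2 2.1.0 are named in the submitters' processing notes, with no role stated. No source used here names the genome build, strand setting or annotation. A table of the whole series that repeats these columns was not used.

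GeneIDs were matched to RefSeq symbols (assembly ARS1.2): 16459 by ID, 9 by accession, and 1036 without a match. The 13067 genes that reached 1 FPKM in 3 or more libraries were tested for breed, without covariates, on log2(FPKM + 1) using lmFit and eBayes with an intensity trend (limma 3.58.1, R 4.3.3). Tests were 2-sided with Benjamini-Hochberg adjustment over all genes and a threshold of 0.05. Genes below the filter and ratios were tested with exact permutation tests, which cannot go below p = 0.1. The procedure was tested on simulated data. Relative depth is the mode of ratios to Tibetan 1 over values between 0.15 and 1 FPKM.

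The genes and lists were chosen with earlier results of these data known. Tests are given for 12 lineage genes, the 3 lowest p of each class (2 where only 2 genes were tested) and CTLA4. CD28, FOXP3, MS4A1, GZMA and CTLA4, which lay below the filter, have an exact permutation p and no fold change. Up to 3 genes with the lowest p of each other list are named, and some are not reported here. CTLA4 and the genes outside these rules (KRCC1, RMND5A, MZB1, POU2AF1, DERL3, SDC1, CD38, IRF4, CCR7, CCL19, CXCL9, CXCL10, CXCR3, IFNG, CSF1R, PTPRC, INHA, STAR, CYP11A1 and markers of other cells) were singled out with values in view. Alternatives were pseudocounts of 0.1 and 0.01, other filters and scalings, other variance models, a replicate block and leaving out ovaries.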

Additional observations from a re-analysis of the deposited data

How the results depend on the processing

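No lymphocyte gene was called under any alternative run, with the lowest limma adjusted p among them between 0.419 (without Jintang 3) and 0.999 (without Tibetan 1). Over all genes limma called 0 genes in every alternative except without Jintang 3 (13 genes) and without both Jintang 3 and Tibetan 2 (1 gene), a setting chosen after seeing the data. As single ovaries were left out the number called ranged from 0 to 13, and the number of lymphocyte genes called stayed at 0. The median log2 fold change ran from -0.28 to 0.54 for all lymphocyte genes and from -0.28 to 0.60 for T cell genes. It ran from -0.62 to 0.35 for B and plasma cell genes and from -0.16 to 0.74 for cytotoxic genes. Each of these medians thus took both signs. The fold changes that turned sign when an ovary was left out ran from -0.48 to 0.59 for CD3E, from -0.13 to 0.46 for CD79A, from -1.12 to 0.24 for JCHAIN and from -0.61 to 0.16 for PRF1, and CD79A stood at -0.02 without both Jintang 3 and Tibetan 2. The cause was not tested. Median-ratio scaling moved the median of all genes to 0.02 and that of the lymphocyte genes to 0.21. Without the filter the cytotoxic median was -0.16. With the replicate number as a block, 0 lymphocyte genes and 0 genes in all were called and the median of the lymphocyte genes was 0.12. The numbers share no stated animal or batch, and the deviations of same-numbered ovaries correlated at -0.02, -0.21 and -0.47 across genes, so the numbers were not taken as pairs. Low values limit the B cell genes and 10 genes below the filter most.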

Other observations

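CD72 and CD8B were highest in Tibetan 1, the ovary with the lowest pan-leukocyte levels, and were picked for this after their values were seen. CD72 had 4.55, 2.57 and 6.02 FPKM in Jintang ovaries, against 17.2, 8.05 and 8.89 FPKM in Tibetan ovaries. CD8B had 38.9 FPKM in Tibetan 1, where PTPRC stood at 4.49 FPKM, its lowest value.

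CXCL9 and CXCL10, chemokines that interferon gamma induces and that draw T cells carrying CXCR3, were highest in Jintang 3, and the 4 genes given here were chosen after their values were seen. CXCL10 had 12.2, 14.2 and 55.5 FPKM in Jintang ovaries, against 8.52, 31.6 and 11.96 FPKM in Tibetan ovaries, the same 2 ovaries at the top as for CD3E. CXCL9 had 13.9, 19.1 and 44.1 FPKM in Jintang ovaries, against 28.1, 30.7 and 21.4 FPKM in Tibetan ovaries. CXCR3 had 0.76, 0.93 and 4.08 FPKM in Jintang ovaries, against 0.74, 1.84 and 0.33 FPKM in Tibetan ovaries. IFNG, which encodes interferon gamma, had at most 0.41 FPKM and was listed at 0 in Jintang 1, Jintang 2 and Tibetan 1.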
